A study of Mus musculus with 10 samples.

Results

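The genes described here are secreted ligands of the bone morphogenetic protein (BMP) family and secreted proteins that bind them, followed in mouse fibroblasts cultured with or without group 2 innate lymphoid cells (ILC2s). The named genes are the antagonists Grem1, Fst, Chrdl1 and Bmper, and the ligands Bmp2, Bmp4, Bmp5, Bmp6 and Bmp7, with the BMP target genes Id1, Id2 and Id3 measured beside them. Of these 9 antagonist and ligand genes, 8 had counts among the 22731 genes of the table and 7 were among the 16344 genes with enough counts to test. Bmp7 was not analysed here, and Bmp5 had too few reads to test. The genes were chosen by their names and with their levels in these 3 groups in view, so their levels are a description and carry no p-value. Tests are given for Id1 to Id3 and for other genes of the pathway. Those genes too were chosen with earlier results of these data known. Pathway genes are named mainly for a small adjusted p, so the named ones do not stand for the whole list.

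The study sorted Pdpn+ Pdgfra+ fibroblasts, negative for CD45, Epcam and CD31, and KLRG1+ ILC2s from mice, cultured them together, and sorted the fibroblasts again for bulk RNA sequencing. Its title places the work in the pancreas. Fibroblasts kept alone (monoculture) gave 4 libraries. Those grown with wild-type ILC2s (WT coculture) gave 3, and those grown with ILC2s labelled IL13KO (IL13KO coculture) also gave 3. The genotype label of the fibroblasts is C57B6 in all 10 libraries, so the IL13KO label describes the ILC2s and not the cells that were sequenced. ILC2s are a main source of interleukin 13, and the IL13KO coculture asks which changes in the fibroblasts appear with ILC2s that carry that knockout. No label ties a library to an animal, a culture or a day, so p-values measure the spread between these libraries, which may be technical.

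BMPs are secreted dimers that bind type I and type II receptor kinases. The receptors phosphorylate SMAD1, SMAD5 and SMAD9, which enter the nucleus with SMAD4 and switch on target genes, among them the Id genes, whose products block basic helix-loop-helix transcription factors. Antagonists act outside the cell by binding the ligand and keeping it from its receptors, and fibroblasts are a common source of them in connective tissue. Grem1 encodes gremlin 1, which binds BMP2, BMP4 and BMP7. Fst encodes follistatin, which binds activins most tightly and also some BMPs. Chrdl1 encodes chordin-like 1, a BMP-binding protein related to chordin. Bmper encodes a BMP-binding matrix-associated protein that can dampen or assist signalling depending on context.

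Among the named genes, Grem1 and Bmper were the most abundant antagonists per kilobase of exon in monoculture and Bmp4 the most abundant ligand. Their promoter sequences are shown. Each is the stretch of 250 bases that ends just before the RefSeq transcription start, on build GRCm38.p6, read 5′ to 3′ on the gene's own strand, and 7 of the 12 genes asked for had an entry. Capitals mark the GC-rich SMAD-type motifs GGCGCC and GGAGCC, searched on both strands, so that GGCTCC in capitals is GGAGCC read from the other strand. The Grem1 window lies on chr2:113758649-113758898, minus strand, the Bmper window on chr9:23222826-23223075, plus strand, and the Bmp4 window on chr14:46390670-46390919, minus strand.
Grem1: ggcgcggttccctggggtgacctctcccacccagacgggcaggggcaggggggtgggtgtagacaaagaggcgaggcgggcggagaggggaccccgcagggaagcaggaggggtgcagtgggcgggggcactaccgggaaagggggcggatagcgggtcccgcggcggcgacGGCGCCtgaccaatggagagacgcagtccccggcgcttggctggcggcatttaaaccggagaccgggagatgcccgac
Bmper: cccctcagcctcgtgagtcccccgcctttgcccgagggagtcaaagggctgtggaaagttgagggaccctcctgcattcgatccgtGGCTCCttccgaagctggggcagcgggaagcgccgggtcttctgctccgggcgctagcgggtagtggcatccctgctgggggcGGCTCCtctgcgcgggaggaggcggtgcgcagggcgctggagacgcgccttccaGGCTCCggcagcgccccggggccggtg
Bmp4: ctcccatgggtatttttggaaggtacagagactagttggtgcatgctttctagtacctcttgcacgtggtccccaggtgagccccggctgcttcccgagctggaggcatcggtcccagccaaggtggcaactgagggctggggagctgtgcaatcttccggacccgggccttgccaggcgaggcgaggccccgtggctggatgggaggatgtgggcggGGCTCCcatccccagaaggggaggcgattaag
The windows are 72% (Grem1), 71.6% (Bmper) and 63.2% (Bmp4) G or C. GGCGCC occurred 1 time in the Grem1 window, with its first base 78 bases before the start, and GGAGCC occurred 3 times in the Bmper window (164, 81 and 27 bases before) and 1 time in the Bmp4 window (32 bases before). Of 32851 RefSeq promoters of the same length, 9.59% held GGCGCC and 26% held GGAGCC. The motif CAGACA (17.1% of promoters) and the STAT-type motifs, TTC and GAA parted by 4 bases (5.85%) or by 3 bases (7.02%), had no match in these 3 windows. A match says only that the letters are there.

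Library totals ran from 10710410 to 14366199 counts in monoculture, from 18801744 to 22087459 in WT coculture and from 17277432 to 17661229 in IL13KO coculture. Levels are in CPM, the counts of a gene relative to the library total, scaled by the trimmed mean of M-values, and 3 counts correspond to 0.211 to 0.277 CPM in monoculture, 0.135 to 0.162 in WT coculture and 0.1701 to 0.171 in IL13KO coculture. Il13 had 0 reads in every monoculture and IL13KO coculture library, and 30, 120 and 121 reads in the WT coculture libraries. Of the other ILC2 markers, Il5 had 0 reads in monoculture, 716 in WT and 106 in IL13KO coculture (12 to 64 per library there). Il2ra had 1, 102 and 87 reads, with 15 to 45 per WT and 4 to 74 per IL13KO coculture library. The 9 ILC2 markers summed to 60.6 to 73.5, 57.5 to 75.6 and 59.3 to 63.4 CPM per library in that order of groups. Most of it came from Rora (means 63.7, 41.7 and 55.25 CPM). The 6 fibroblast markers summed to 5311 to 7697 CPM per library in monoculture, 9086 to 13559 in WT and 19218 to 24063 in IL13KO coculture. Against monoculture, 5 of the 6 rose in WT and 4 in IL13KO coculture, beside 32.8% and 30.1% of all genes tested. Pdgfra, Thy1, Col1a1 and Col3a1 rose in both, and Pdpn in WT coculture only, where its libraries overlapped monoculture. The matrix gene Dcn was the 1 marker of the 6 that fell, and averaged 2532 CPM in monoculture, 369 in WT and 1650.2 in IL13KO coculture. The gate for the second sort is worded as CD45+, and Ptprc, which encodes CD45, had 0 reads in monoculture, 6, 3 and 9 in WT coculture and 0, 1 and 0 in IL13KO coculture. The summed level of 6 leukocyte markers was 2.89 to 6.61 CPM in monoculture (3 of 6 with counts), 95.04 to 117 in WT coculture (6 of 6) and 13.8 to 21.8 in IL13KO coculture (6 of 6), most of it from Cd53. Of the macrophage markers, summed at 58.4 to 65.3, 14.7 to 17.5 and 35.2 to 37.1 CPM in that order of groups, Lyz2 made up most in monoculture (53.4 CPM) and IL13KO coculture (23.8 CPM), and Csf1r in WT coculture (12.9 CPM, against 2.85 of Lyz2). The mural and stellate markers summed to 91.2 to 121, 51.6 to 111 and 279 to 301 CPM, and the mesothelial markers to 25.0 to 90.3, 129.8 to 144 and 103 to 202 CPM, while the endothelial markers stayed at 0 to 0.769 CPM in all 10 libraries. The part of these differences in the results that follow was not tested, and in bulk RNA fewer cells of a type and less RNA per cell cannot be told apart.

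Among the antagonists, Grem1 stood far lower in WT coculture than in either other group. Its level was 101, 83.9, 92.3 and 93.3 CPM in the monoculture libraries, 1.44, 3.28 and 4.20 CPM in WT coculture and 51.6, 45.2 and 27.9 CPM in IL13KO coculture. The 3 groups did not overlap: monoculture was highest, IL13KO coculture lay between, and every WT coculture library was below 5 CPM. The means were 92.6 ± 6.997 (SD, n = 4), 2.97 ± 1.41 (n = 3) and 41.6 ± 12.3 CPM (n = 3). WT coculture was 31.5-fold lower than monoculture, a log2 fold change of -4.98 ± 0.31 (SE). IL13KO coculture was 2.23-fold lower than monoculture (-1.16 ± 0.24), and WT coculture was 14.2-fold lower than IL13KO coculture (-3.82 ± 0.31). The gene lies on chromosome 2 at 113746164 to 113758646 on the minus strand of GRCm38, and none of its exon bases are shared with another gene.

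Bmper followed another order, lowest in WT coculture and highest in IL13KO coculture. The monoculture libraries had 339.8, 401, 334 and 402 CPM, the WT coculture libraries 269.8, 227 and 228 CPM, and the IL13KO coculture libraries 436, 432 and 411 CPM. Again no groups overlapped, although the gap between monoculture and IL13KO coculture was small beside the range within monoculture. Against monoculture the log2 fold change was -0.61 ± 0.10 in WT coculture and 0.21 ± 0.10 in IL13KO coculture, and WT against IL13KO coculture it was -0.82 ± 0.11. With each library's trend on GC content and length removed, the IL13KO value was 0.0067 ± 0.09 and the WT value against monoculture -0.82 ± 0.09. Bmper lies on chromosome 9 at 23223076 to 23485200, plus strand.

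Fst differed little between the cocultures. It stood at 28.0, 25.4, 23.5 and 32.5 CPM in monoculture, 21.9, 20.2 and 19.8 CPM in WT coculture and 24.7, 16.5 and 22.8 CPM in IL13KO coculture. All WT coculture libraries lay below the lowest monoculture library, whereas IL13KO coculture overlapped both other groups. The log2 fold changes were -0.41 ± 0.16 and -0.36 ± 0.16 against monoculture and -0.05 ± 0.17 between the cocultures. The sign of the last value turned with single libraries left out, to 0.07 without IL13KO coculture library 1.

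Chrdl1 was the least abundant of the named antagonists. It had 17, 6, 2 and 2 reads in monoculture, 38, 25 and 27 in WT coculture and 13, 15 and 17 in IL13KO coculture. Monoculture library 1 alone held most of the monoculture reads, so that monoculture overlapped both cocultures in CPM, while WT and IL13KO coculture did not overlap. The log2 fold change of WT coculture against monoculture was 1.44 ± 0.56, and 2.48 ± 0.46 without that library. For IL13KO coculture the same values were 0.64 ± 0.60 and 1.69 ± 0.49. The difference between the cocultures was 0.80 ± 0.56.

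Of the ligands, Bmp6 stood higher in both cocultures. Bmp6 encodes a BMP best known for bone formation and for control of hepcidin in iron balance. The libraries had 3.04, 3.63, 3.60 and 2.04 CPM in monoculture, 10.2, 9.43 and 8.78 CPM in WT coculture and 7.37, 6.82 and 7.03 CPM in IL13KO coculture. No groups overlapped, with WT coculture highest and monoculture lowest. WT coculture was 3.09-fold and IL13KO coculture 2.31-fold higher than monoculture (log2 fold changes 1.63 ± 0.20 and 1.21 ± 0.21), and WT was 1.34-fold higher than IL13KO coculture (0.42 ± 0.21). With the GC and length trend removed, the values against monoculture were smaller, 1.01 ± 0.20 in WT and 0.48 ± 0.20 in IL13KO coculture. Of the exon bases of Bmp6, 5.74% are shared with Txndc5 on the other strand, and the way the counting treated strand is not given in the sources used here.

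Bmp4 encodes a ligand used throughout mesenchymal development, and it was the most abundant of the named ligands per length. It stood at 4.65, 5.78, 6.73 and 5.91 CPM in monoculture, 7.81, 8.15 and 9.22 CPM in WT coculture and 7.32, 8.07 and 6.92 CPM in IL13KO coculture. Both cocultures lay above every monoculture library and overlapped each other. The log2 fold changes were 0.54 ± 0.17 and 0.37 ± 0.17 against monoculture and 0.17 ± 0.18 between the cocultures.

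Bmp2, the close relative of Bmp4, went the other way from Bmp6 in WT coculture. It had 9, 32, 13 and 40 reads in monoculture, 5, 5 and 14 in WT coculture and 18, 18 and 26 in IL13KO coculture. In CPM the WT coculture libraries (0.224, 0.256 and 0.754) lay below the lowest monoculture library (0.7601) and below all IL13KO coculture libraries (1.02 to 1.47), by a margin that is within counting error for WT coculture library 4 against monoculture library 1. The log2 fold change was -2.14 ± 0.55 for WT coculture against monoculture, -0.62 ± 0.49 for IL13KO coculture against monoculture and -1.52 ± 0.58 between the cocultures. Without WT coculture library 4 the first was -2.87 ± 0.63 and the last -2.25 ± 0.65. Bmp5 had 0, 0, 3 and 0 reads in monoculture, 0, 0 and 2 in WT coculture and 1, 3 and 3 in IL13KO coculture. No library exceeded 3 reads, so no difference in Bmp5 was detectable at this depth and no fold is given, and 46.7% of its exon bases are shared with Gm26903 on the other strand.

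**Figure D1:**
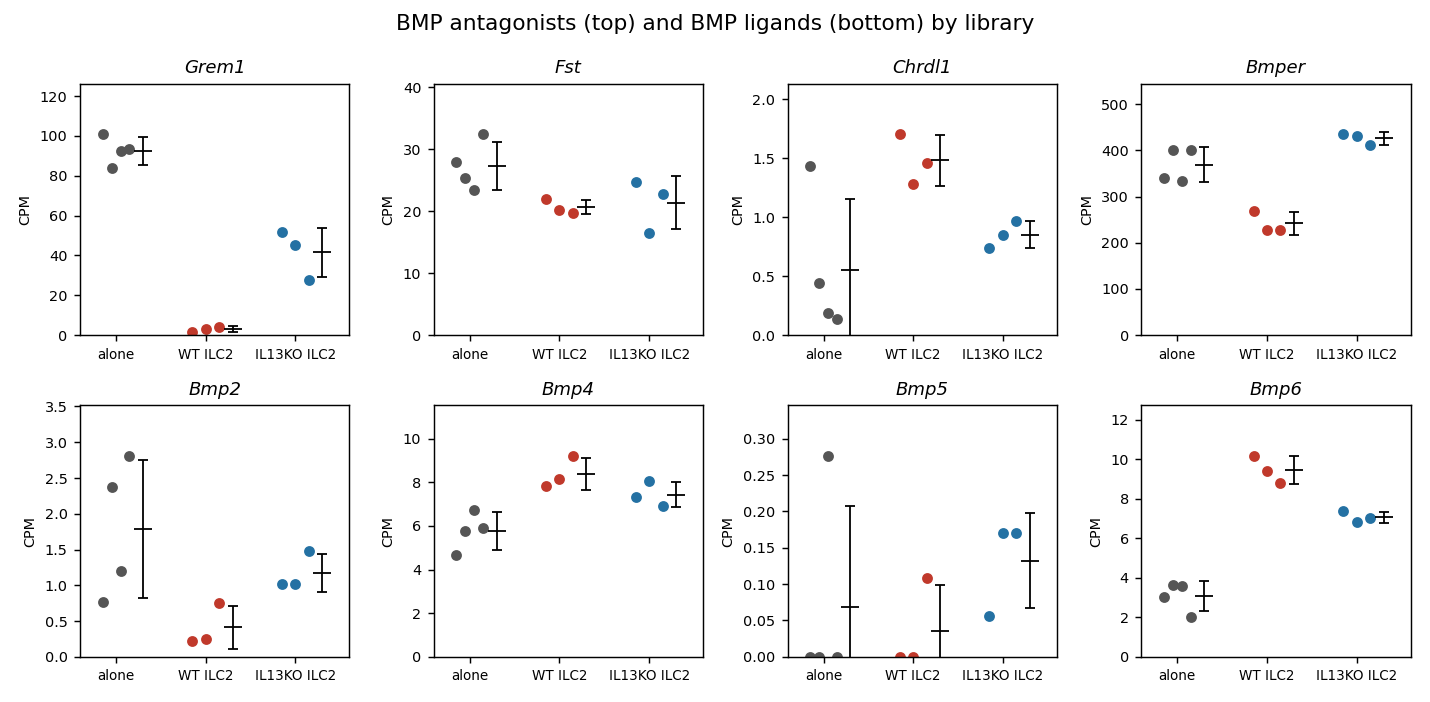
Level in CPM of each antagonist (top row) and ligand (bottom row) in the 10 libraries, with a point per library and bars for the mean ± SD of each group. Grem1 lies between 1.44 and 4.20 CPM in WT coculture and between 83.9 and 101 CPM in monoculture, Bmp6 is lowest in monoculture, and the axes differ between genes.

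Over the 7 tested genes, WT coculture did not overlap monoculture for 6: Bmp4 and Bmp6 were higher and Grem1, Fst, Bmper and Bmp2 lower. Of all genes tested, 32.2% separated upwards and 28.7% downwards in this way. IL13KO coculture did not overlap monoculture for 4, with Bmper, Bmp4 and Bmp6 higher and Grem1 lower, beside 30.9% and 28.3% of all genes. WT coculture did not overlap IL13KO coculture for 5, with Chrdl1 and Bmp6 higher and Grem1, Bmper and Bmp2 lower, beside 24.2% and 24.8% of all genes. Because the genes were chosen with these contrasts in view, nothing is read from those counts. The median log2 fold change of the 7 genes was -0.41, 0.21 and -0.05 in the 3 comparisons, beside 0.02, 0.0017 and -0.0042 over all genes tested. Both comparisons against monoculture use the same 4 monoculture libraries.

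**Figure D2:**
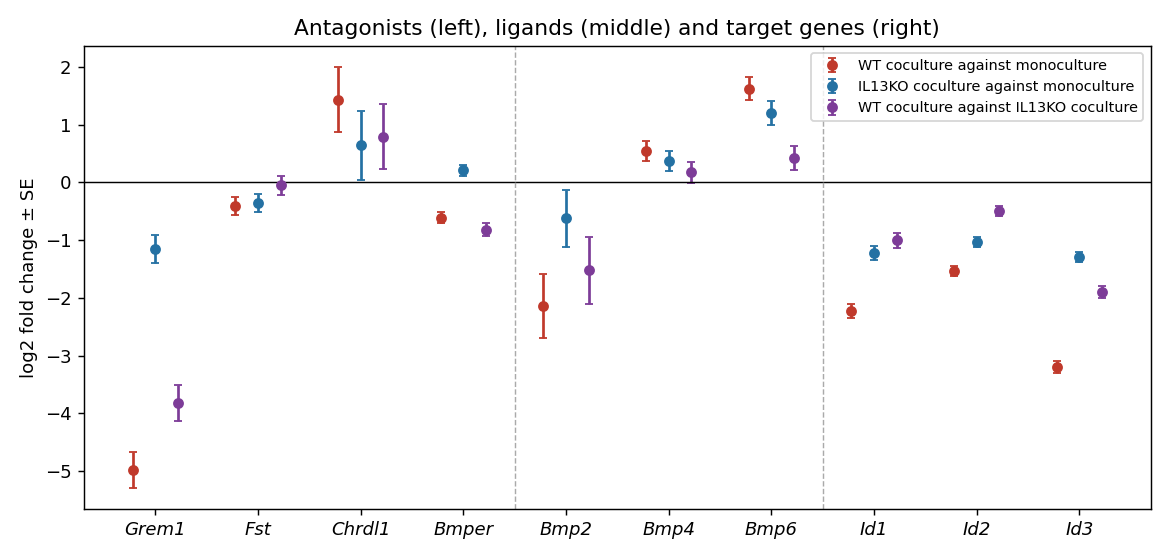
Log2 fold change ± SE of the 7 tested antagonists and ligands and of Id1 to Id3 in the 3 comparisons, from 1 fit over all genes. Grem1 has the lowest point, -4.98 for WT coculture against monoculture, and Id1 to Id3 are below 0 in all 3 comparisons.

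Levels of different genes were compared per kilobase of exon. In monoculture Bmper had 76.4 ± 7.72 CPM per kilobase (SD, n = 4), followed by Grem1 at 22.3 ± 1.69, Fst at 5.96 ± 0.846 and Bmp4 at 2.56 ± 0.381. Bmp6 (0.789 ± 0.190) and Bmp2 (0.502 ± 0.271) came next and overlapped each other, and Chrdl1 (0.0816 ± 0.0895) overlapped Bmp5 at the bottom. In WT coculture (n = 3) Grem1 dropped in this order to below the ligands Bmp4 (3.73 CPM per kilobase) and Bmp6 (2.43), with a level of 0.717 CPM per kilobase, and Chrdl1 (0.219) and Bmp2 (0.116) overlapped. In IL13KO coculture (n = 3) the order was Bmper (88.2 CPM per kilobase), Grem1 (10.02), Fst (4.66), Bmp4 (3.31), Bmp6 (1.81), Bmp2 (0.330) and Chrdl1 (0.126), with no neighbours overlapping.

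Summed over the 4 antagonists, the level was 105 ± 7.35 CPM per kilobase in monoculture, 55.5 ± 4.95 in WT coculture and 103 ± 5.70 in IL13KO coculture. Bmper made up 72.8%, 90.2% and 85.7% of that sum and Grem1 21.4%, 1.33% and 9.64%. Without Grem1 the sums were 82.4 ± 8.14, 54.8 ± 5.27 and 92.9 ± 2.77 CPM per kilobase. The 4 ligands with counts summed to 3.87 ± 0.564, 6.28 ± 0.266 and 5.48 ± 0.170 CPM per kilobase. Bmp4 held 66.3%, 59.3% and 60.2% of the ligand sum and Bmp6 20.6%, 38.7% and 33.1%. Transcripts of these 4 antagonists thus exceeded those of these 4 ligands in every library. WT coculture had the lowest sum of these antagonists and the highest sum of these ligands. The sums hold only the named genes. Among genes described below, the ligand Gdf10 had 19.0, 11.9 and 45.9 CPM per kilobase in the same order of groups, highest in IL13KO coculture. The ligand Gdf6 had 1.40, 7.55 and 8.17, lowest in monoculture, and the cocultures overlapped. The modulator Smoc2 had 80.0, 20.9 and 83.0. Of modulators not described below, Fstl1 had 489, 600 and 524 CPM per kilobase, highest in WT coculture. Nbl1 had 128, 94.1 and 149, with the lowest mean in WT coculture. A sum over other genes could therefore order the groups differently. Transcript levels do not give the amounts of protein.

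**Figure D3:**
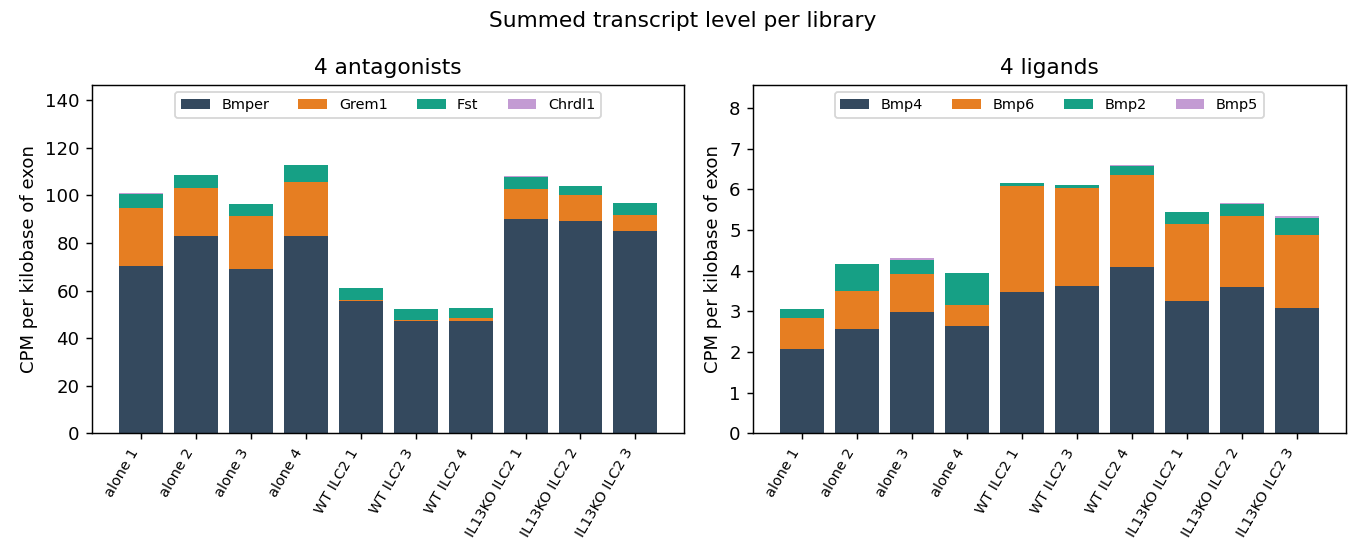
CPM per kilobase of exon in each library, stacked over the 4 antagonists (left) and the 4 ligands with counts (right); the axes differ. Bmper makes up most of each antagonist bar, and the 3 WT coculture bars reach 52.4 to 61.2 against 96.5 to 113 in monoculture.

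The Id genes were lower in both cocultures, and lower with WT than with IL13KO ILC2s. Id3 fell from 2004 ± 96.1 CPM in monoculture (n = 4) to 219 ± 17.9 in WT coculture (n = 3) and 818 ± 79.0 in IL13KO coculture (n = 3). Its libraries read 1864, 2082, 2029.9 and 2039 CPM in monoculture, 214, 205 and 239 CPM in WT coculture and 903, 805 and 747 CPM in IL13KO coculture, with no overlap between groups. The log2 fold changes were -3.19 ± 0.10 (adjusted p = 5.68e-10), -1.29 ± 0.09 (6.88e-07) and -1.90 ± 0.10 (2.64e-07) for WT against monoculture, IL13KO against monoculture and WT against IL13KO coculture. All adjusted p-values are from the quasi-likelihood test of edgeR with Benjamini-Hochberg adjustment over all genes tested, and a gene is said to rise or fall where that value is under 0.05.

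Id1 stood at 274, 289, 294 and 297 CPM in monoculture, 60.6, 49.7 and 74.3 CPM in WT coculture and 121, 125 and 125 CPM in IL13KO coculture. It fell by 2.23 ± 0.12 on the log2 scale in WT coculture against monoculture (edgeR adjusted p = 2.28e-08), by 1.23 ± 0.12 in IL13KO coculture (4.17e-06) and by 1.004 ± 0.12 in WT against IL13KO coculture (0.000102). Id2 stood at 536, 540.3, 553 and 573 CPM in monoculture, 179, 182 and 209 CPM in WT coculture and 262, 275 and 269.7 CPM in IL13KO coculture. It fell by 1.53 ± 0.08 (edgeR adjusted p = 2.28e-08), 1.03 ± 0.08 (1.23e-06) and 0.50 ± 0.09 (0.0012) in the same comparisons. Monoculture, IL13KO coculture and WT coculture followed each other without overlap for all 3 Id genes, the order that Grem1 showed. The markers Dcn, Lyz2 and Rora also showed it without overlap, so the order is not particular to Grem1 and the Id genes. The share of all genes tested with this order was not counted. Because each group forms a cluster of its own in these genes, no correlation between the Id genes and the antagonists or ligands is given.

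**Figure D4:**
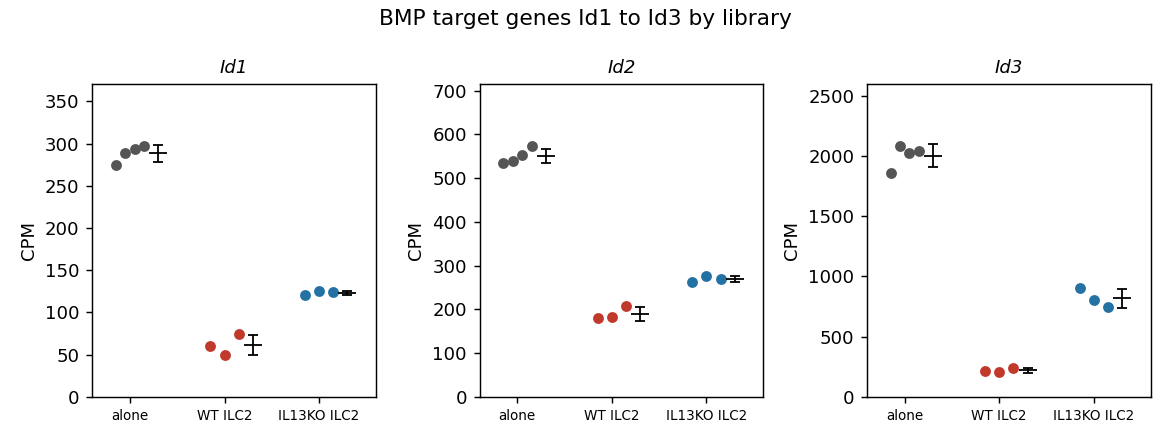
Level in CPM of Id1, Id2 and Id3 in the 10 libraries, with a point per library and bars for the mean ± SD of each group. The groups do not overlap for any of the 3 genes, and Id3 shows the widest range, from 205 CPM in a WT coculture library to 2082 CPM in a monoculture library.

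The other genes of the pathway were taken from a list of 81, of which 68 had counts and 58 were tested. In WT coculture against monoculture 21 rose, 18 fell and 19 did not pass, beside 32.8% of all genes tested that rose and 29.7% that fell. In IL13KO coculture against monoculture 27 rose and 13 fell, beside 30.1% and 27.3%. In WT against IL13KO coculture 2 were higher and 24 lower, beside 11.6% and 11.7% of all genes. These shares of all genes also stand beside the counts per role that follow. The median log2 fold change of the list was -0.0003, 0.40 and -0.52. The split against monoculture moved with the scaling: upper-quartile scaling gave 16 higher and 21 lower for WT coculture, and removal of the GC and length trend gave 14 and 27 for WT and 18 and 21 for IL13KO coculture. Between the cocultures the count called dropped from 26 to 15 without WT coculture library 3 and to 16 without WT coculture library 4, IL13KO coculture library 1 or IL13KO coculture library 2, with 2 higher each time.

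Among the other ligands, 7 were tested and 1 rose and 3 fell in WT coculture, 2 rose and 2 fell in IL13KO coculture, each against monoculture. Gdf6, a BMP-family ligand of skeletal and joint development, rose from 4.95 ± 1.62 CPM to 26.7 ± 2.69 in WT and 28.9 ± 6.53 in IL13KO coculture (log2 fold changes 2.43 ± 0.24 and 2.54 ± 0.24, edgeR adjusted p = 2.36e-06 and 3.62e-06). Gdf10, also called BMP3b, moved apart in the cocultures: it averaged 98.7 ± 21.1 CPM in monoculture, 61.8 ± 17.6 in WT coculture and 239 ± 30.5 in IL13KO coculture. Its log2 fold change was -0.67 ± 0.19 (edgeR adjusted p = 0.00835), with overlapping groups, and 1.28 ± 0.19 (9.73e-05) against monoculture, and WT against IL13KO coculture it was -1.95 ± 0.21 (3.16e-05). Gdf11 fell by 1.23 ± 0.24 on the log2 scale in WT coculture against monoculture (edgeR adjusted p = 0.000568), and Gdf15, a stress-induced member of the wider family, fell by 0.86 ± 0.20 (0.00187).

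Of 16 tested modulators outside the cell, 6 rose and 3 fell in WT coculture against monoculture, 8 rose and 2 fell in IL13KO coculture against monoculture, and 6 were lower in WT than in IL13KO coculture. Smoc2, a secreted matrix protein of a family that inhibits BMP signalling, averaged 556 ± 84.9 CPM in monoculture, 145 ± 24.4 in WT and 577 ± 40.5 in IL13KO coculture. It fell by 1.93 ± 0.14 on the log2 scale in WT coculture against monoculture (edgeR adjusted p = 2.51e-07) and was lower by -1.99 ± 0.15 against IL13KO coculture (2.06e-06). Twsg1, which binds both BMPs and chordin, fell by 0.64 ± 0.11 in WT coculture against monoculture (edgeR adjusted p = 0.000290) and was -0.83 ± 0.12 in WT against IL13KO coculture (0.000303). Nog, which encodes the antagonist noggin, rose in IL13KO coculture from 2.28 ± 1.15 to 7.55 ± 0.887 CPM (log2 fold change 1.74 ± 0.32, edgeR adjusted p = 0.000531) and had 2.32 ± 0.577 CPM in WT coculture (0.05 ± 0.34, adjusted p = 0.906). Rgma, a BMP co-receptor anchored to the membrane, rose from 0.715 ± 0.0897 CPM to 11.3 ± 4.36 and 11.7 ± 0.362 CPM (3.98 ± 0.30 and 4.02 ± 0.30, edgeR adjusted p = 2.53e-07 and 7.44e-07). Smoc2, Twsg1 and Nog, like Bmper, were lower in WT than in IL13KO coculture, but they were named for their small adjusted p in that comparison. All 6 modulators called there were lower, so the shared direction is not a separate result. For Rgma the difference between the cocultures was -0.04 ± 0.25 (edgeR adjusted p = 0.924).

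The 5 tested processing enzymes gave 3 that rose and 1 that fell in each coculture against monoculture. Bmp1 is, in spite of its name, no BMP but a protease that cleaves chordin and procollagens. It rose from 52.0 ± 14.6 CPM to 456 ± 11.3 in WT and 445 ± 52.3 in IL13KO coculture (log2 fold changes 3.14 ± 0.17 and 3.10 ± 0.17, edgeR adjusted p = 2.01e-08 and 1.25e-07). Pcsk5, a proprotein convertase, rose from 32.3 ± 6.17 CPM to 269 ± 10.2 and 156 ± 15.1 CPM (3.06 ± 0.13 and 2.28 ± 0.13, edgeR adjusted p = 4.55e-09 and 1.81e-07), and was higher in WT than in IL13KO coculture by 0.79 ± 0.14 (0.00126). Its relative Pcsk6 fell by 2.41 ± 0.29 in WT coculture against monoculture (edgeR adjusted p = 1.39e-05) and was lower in WT than in IL13KO coculture, -1.56 ± 0.30 (0.00262). Of the activin subunits that follistatin binds, Inhbb fell by 0.97 ± 0.22 in WT coculture against monoculture (edgeR adjusted p = 0.0022), and Inhba had -0.43 ± 0.18 (0.0595; 0.0421 with DESeq2 and 0.0256 with the replicate block). In IL13KO coculture Inhba fell by 0.52 ± 0.19 (edgeR adjusted p = 0.0296), a call lost with the replicate block (0.0766) and without monoculture library 1 (0.0507) or 4 (0.0747) or IL13KO library 1 (0.0935) or 2 (0.131).

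Of 9 tested receptors, 5 rose and 2 fell in each coculture against monoculture. Of those that rose in WT coculture, Acvr1 and Bambi lost the call with upper-quartile scaling (edgeR adjusted p = 0.164 and 0.0826). Both also lost it with the replicate block (edgeR adjusted p = 0.071 and 0.0537). The 2 that fell in both were Bmpr1a and Bmpr2, which encode a type I and the type II BMP receptor. Bmpr1a had 143, 132, 134 and 157 CPM in monoculture, 45.7, 41.2 and 42.5 CPM in WT coculture and 64.3, 66.9 and 62.4 CPM in IL13KO coculture, without overlap. Its log2 fold changes were -1.71 ± 0.10 (edgeR adjusted p = 2.51e-08), -1.13 ± 0.09 (1.45e-06) and -0.58 ± 0.10 (0.00106) for WT against monoculture, IL13KO against monoculture and WT against IL13KO coculture. Bmpr2 averaged 77.7 ± 9.93, 33.2 ± 3.43 and 48.9 ± 5.34 CPM and fell by 1.23 ± 0.13 and 0.67 ± 0.13 against monoculture (edgeR adjusted p = 4.49e-06 and 0.000675). Between the cocultures its value was -0.56 ± 0.14 (edgeR adjusted p = 0.00976), and the call was lost without WT coculture library 3 (adjusted p = 0.0621) or IL13KO coculture library 2 (0.0574). Eng, which encodes the co-receptor endoglin, rose from 77.1 ± 29.9 CPM to 207 ± 17.7 and 253 ± 8.14 CPM (1.42 ± 0.21 and 1.71 ± 0.21, edgeR adjusted p = 8.02e-05 and 2.86e-05). Acvr1b, an activin type I receptor, rose by 1.34 ± 0.26 and 2.26 ± 0.26 (edgeR adjusted p = 0.000638 and 1.60e-05). Against monoculture the receptors of BMPs and of activins therefore changed in both directions. Between the cocultures 0 of the 9 were higher and 4 were lower in WT coculture, beside 11.6% and 11.7% of all genes tested.

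All 11 SMADs and their inhibitors were tested. Against monoculture 2 were higher and 6 lower in WT coculture, and 4 higher and 4 lower in IL13KO coculture. Between the cocultures 0 were higher and 6 were lower in WT coculture, beside 11.6% and 11.7% of all genes tested. With the replicate block Smad1 (edgeR adjusted p = 0.0643), Smad5 (0.0591), Smad6 (0.0687), Smad7 (0.0907) and Skil (0.156) lost that call. Smurf2 lost it without WT coculture library 4 (edgeR adjusted p = 0.0989). Smad1, a carrier of the BMP signal, fell by 0.82 ± 0.14 in WT coculture against monoculture (edgeR adjusted p = 0.000195) and had -0.24 ± 0.13 in IL13KO coculture (0.142), whereas Smad5 rose by 0.71 ± 0.12 in IL13KO coculture (0.000267) and had 0.26 ± 0.12 in WT coculture (0.0817). Smad4, the shared partner, fell by 0.93 ± 0.14 and 0.83 ± 0.14 (edgeR adjusted p = 9.70e-05 and 0.000304). Smad6, an inhibitory SMAD that is itself induced by BMP, averaged 12.2 ± 4.13, 3.25 ± 1.23 and 7.13 ± 0.519 CPM and fell by 1.90 ± 0.29 in WT coculture against monoculture (edgeR adjusted p = 9.07e-05). Smurf2, a ubiquitin ligase acting on SMADs and receptors, fell by 1.56 ± 0.15 and 1.08 ± 0.14 (edgeR adjusted p = 1.55e-06 and 4.49e-05), and Tob1, which restrains SMAD activity, rose by 1.20 ± 0.14 and 0.91 ± 0.14 (8.03e-06 and 0.00012).

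Against monoculture, the 8 other target genes tested did not follow Id1 to Id3 as a group. Of them, 4 rose and 2 fell in WT coculture, and 5 rose and 1 fell in IL13KO coculture. With the cocultures compared, 1 was higher and 4 were lower in WT coculture, beside 11.6% and 11.7% of all genes tested. The median log2 fold change of the 8 genes in that comparison was -1.14, in the direction of Id1 to Id3. Hey1, a repressor that both BMP and Notch can induce, went the way of the Id genes, at 18.1, 17.3, 21.7 and 21.1 CPM in monoculture, 0.808, 0.615 and 1.13 CPM in WT coculture and 7.09, 7.22 and 8.28 CPM in IL13KO coculture. Its log2 fold changes were -4.51 ± 0.23 (edgeR adjusted p = 1.11e-08), -1.37 ± 0.18 (3.82e-05) and -3.14 ± 0.23 (1.77e-06) for WT against monoculture, IL13KO against monoculture and WT against IL13KO coculture. Id4 fell by 2.44 ± 0.28 in WT coculture against monoculture (edgeR adjusted p = 8.07e-06), and had -0.37 ± 0.25 in IL13KO coculture (0.227). Msx1, a homeobox gene that BMP induces in mesenchyme, went the other way, at 3.12, 6.30, 6.45 and 6.19 CPM in monoculture, 141, 164 and 117 CPM in WT coculture and 19.6, 24.4 and 20.2 CPM in IL13KO coculture. Msx1 rose by 4.67 ± 0.21, 1.95 ± 0.20 and 2.72 ± 0.20 in the 3 comparisons (edgeR adjusted p = 4.65e-09, 7.40e-06 and 1.98e-06). Gata2 rose by 1.52 ± 0.23 and 2.32 ± 0.23 against monoculture (edgeR adjusted p = 9.94e-05 and 5.62e-06).

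**Figure D5:**
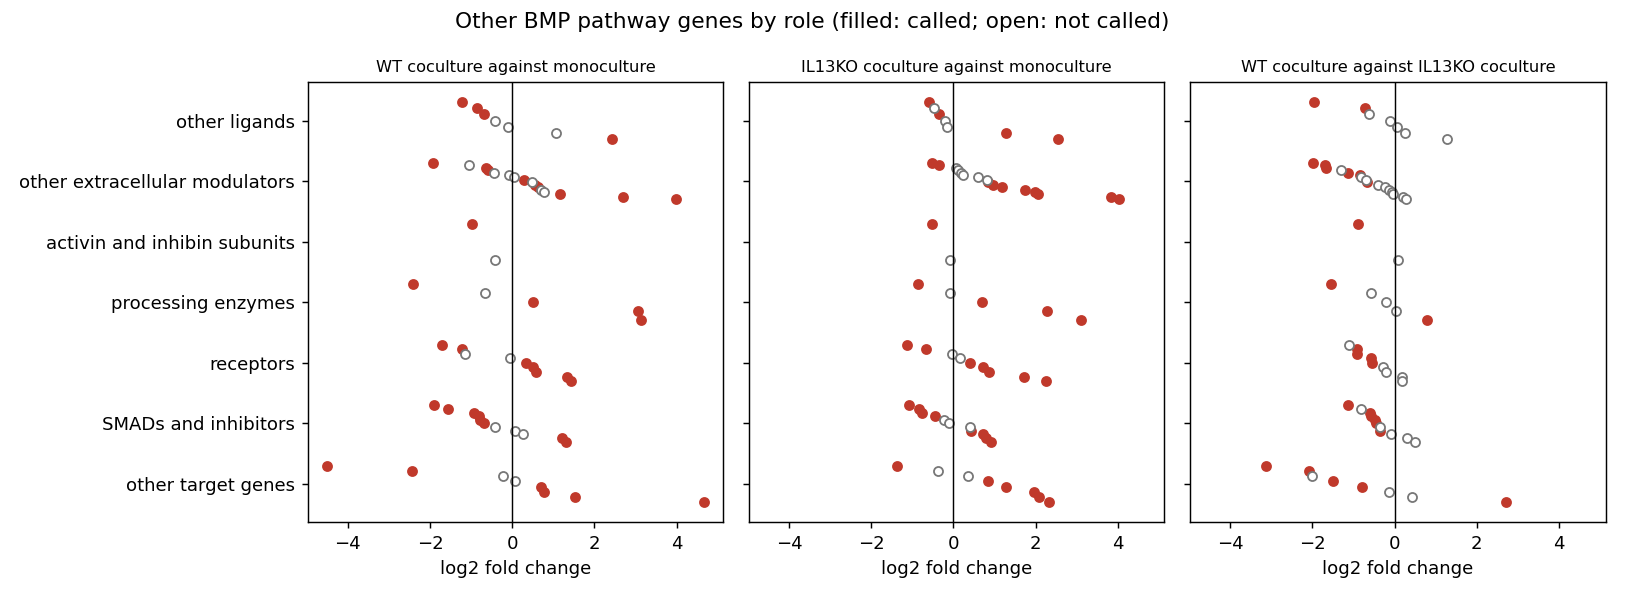
Log2 fold change of each tested gene of the pathway list in the 3 comparisons, 1 row per role, filled where the edgeR adjusted p is under 0.05 and open where it is not. Genes lie on both sides of 0 against monoculture, and 24 of the 26 filled points of WT against IL13KO coculture are below 0.

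As a description with no test, since the libraries fall into 3 groups, genes of like level were looked up over the 10 libraries. They were sought for the most abundant of the named antagonists and of the named ligands. For Bmper they were Mettl9 (Pearson r of log2 CPM 0.98), Fgf10 (0.98) and Aldh3b1 (0.977). Fgf10, a fibroblast growth factor made by mesenchyme, averaged 19.8 CPM in monoculture, 7.91 in WT coculture and 23.8 in IL13KO coculture, the order of groups seen for Bmper. For Bmp4 they were Wdr54 (0.985), Tufm (0.967) and Map6 (0.967), and Map6 averaged 13.2, 55.0 and 33.9 CPM.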

How the data were processed

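Bulk RNA-seq counts of 10 fibroblast libraries were analysed. The counts per gene are whole numbers as deposited; a second deposited table, of scaled counts, was not used. The submitters' processing notes name STAR 2.7.7a, Salmon 1.6.0, DESeq2, Trimmomatic 0.39, Picard, FastQC 0.11.9 and build GRCm38.p6; which tool counted, and with which strand setting, is not given in the sources used here. Counts were tested with edgeR 4.0.16 (TMM, filterByExpr, quasi-likelihood test, Benjamini-Hochberg over 16344 genes, threshold 0.05), with all 3 groups in 1 fit. Columns of WT coculture carry the numbers 1, 3 and 4 and were placed by group. Gene positions and lengths are from GENCODE M21, matched for 22647 of 22731 genes, and promoters from RefSeq.

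The genes described, the pathway list and the marker lists were chosen with earlier results of these data known. Named beside the members and Id1 to Id3 were up to 3 list genes per role and comparison with the smallest adjusted p, and any receptor or SMAD. The fit was tested on simulated data. Alternatives were DESeq2 1.42.0, limma-voom (limma 3.58.1), 2 other scalings, 2 other filters on low counts, the compared groups alone, a replicate block, removal of GC and length trends, and each library left out.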

Additional observations from a re-analysis of the deposited data

Results flagged for a closer look

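In monoculture, the highest or lowest of the 4 libraries stood apart from the other 3 for 6 of 53 genes checked, where chance gives about 1 in 20. Library 3 was highest for Bmp5 (0.277 CPM, which is 3 reads against 0 in the others), Smad1 (21.7 CPM) and Smad6 (18.3 CPM). Library 4 was highest for Bmpr1b (4.01 CPM) and lowest for Tob1 (14.7 CPM), and library 1 was lowest for Msx1 (3.12 CPM).

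Gdf10 had effects of opposite sign in the 2 cocultures against the shared monoculture, and the difference itself, WT minus IL13KO coculture, was -1.95 on the log2 scale (edgeR adjusted p = 3.16e-05).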

How the results depend on the processing

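The 7 tested antagonists and ligands gave 399 values under the alternatives, of which 390 lay within the SD between libraries of the value reported and 9 did not. The sign changed only for Fst between the cocultures. Beside those in the report, Bmp6 in WT against IL13KO coculture was 0.58 with the replicate block and 0.52 after removal of the GC and length trend. Id1 to Id3 kept direction and call in all 171 values. Of 2391 values for the named pathway genes, 114 lost their call, 29 gained one and 6 reversed, all 6 with the GC and length trend removed: Furin at -0.50 (WT) and -0.55 (IL13KO), Rgmb at -0.036 (WT), Ski at -0.50 (WT) and -0.32 (IL13KO) and Smurf1 at -0.028 (IL13KO), each against monoculture. The cause was not tested. Upper-quartile scaling moved the median of all genes to -0.11 and -0.10 against monoculture, and the GC and length trend to 0.12 and 0.13.

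Between WT and IL13KO coculture 3810 genes were called, 5806 with only these groups in the fit, 2124 with the replicate block, and 2337 to 4814 with single libraries left out (2523 without WT library 4, 2482 without IL13KO library 1 and 2337 without IL13KO library 2). Of the pathway list 26 were called, 38 (4 higher and 34 lower) with only the groups compared in the fit, 17 with the replicate block and 15 to 31 with single libraries left out. Libraries with the same number did not deviate together (r from -0.13 to 0.03 over 8 pairs, 0 over 0.1, and 1 of 10 libraries closest to its own number). With so few libraries per group, this cannot show whether libraries share an animal, a culture or a day. With the block the pathway list against monoculture split into 17 higher and 20 lower (WT) and 25 and 6 (IL13KO). Depth limits Bmp2, Chrdl1 and Bmp5, which have few reads.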
